A study of Sus scrofa with 6 samples.

Results

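Antigen presentation genes were described in the subcutaneous fat of pigs that ate a control diet or feed supplemented with resveratrol, a polyphenol of plants, at 400 mg/kg. Every animal was a hybrid of the Duroc, Landrace and Yorkshire breeds, and the labels give no age for either group. Total RNA of whole fat was sequenced, with 3 libraries from the control diet (control 1, 2 and 3) and 3 from the resveratrol diet (resveratrol 1, 2 and 3). The labels do not tie the libraries of a group to separate animals, so the p-values measure the spread between these libraries, which may be technical. The genes were taken by symbol from a list of 10, of which 7 were matched to a row among the 22844 rows of each library table. Of these 7, 5 belong to the class I loading pathway (TAP1, TAP2, PSMB8, PSMB9 and PSMB10) and 2 to the class II pathway (SLA-DQB1 and CD74). No row was matched to B2M, SLA-DRA or SLA-DQA1, so B2M and SLA-DQA1 were not analysed here. A further row carries the human-style symbol HLA-DRA, the name of the class II DR alpha chain. It falls outside the symbol rule and is given beside the members without being counted among them.

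Antigen presentation shows pieces of proteins to T cells. In the class I pathway, which most nucleated cells run, the proteasome cuts cytosolic proteins into peptides, the TAP1 and TAP2 transporter carries them into the endoplasmic reticulum, and they are loaded on a heavy chain paired with B2M. In the class II pathway, used mainly by macrophages, dendritic cells and B cells, proteins taken up from outside are cut in endosomes and loaded on paired alpha and beta chains, which CD74 (the invariant chain) guards until then. Fat holds resident macrophages, and interferon gamma is a known inducer of both sets of genes. In bulk tissue, fewer cells of a type and less RNA per cell cannot be told apart.

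The shallowest library was control 2 with 16251536 reads, and the deepest was resveratrol 2 with 37943877. Control 2 had the highest TPM (a transcript level scaled for gene length and library total) of the 6 libraries in 47.8% of the 14908 rows tested, so TPM levels are given beside counts scaled by the trimmed mean of M values (TMM). Markers placed the tissue as fat, with a summed TPM of 9 adipocyte genes between 19050 and 28450. Tendon and cartilage genes stood highest in control 1. The 8 of them summed to 160, 11.2 and 37.5 TPM in control 1, 2 and 3, against 7.94, 10.3 and 5.97 in resveratrol 1, 2 and 3. Each control library was thus above each resveratrol library in this sum, though control 2 stood close to resveratrol 2. The part of such tissue in the levels of the members was not tested.

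Class II genes were abundant in this fat and class I loading genes were at moderate levels. CD74 ranked 271 from the top of the 14908 tested rows by mean TPM and SLA-DQB1 ranked 540. The class I genes ranked between 3819 (PSMB9) and 6003 (TAP2). In every library CD74 stood above SLA-DQB1, and SLA-DQB1 stood above each of the 5 class I genes. CD74 exceeded TAP1 by 20.2 to 27.6 times in TPM. PSMB9, PSMB10, PSMB8 and TAP1 followed each other closely, with ranges over the 6 libraries that overlapped. TAP2 was the lowest of the 7 in each library. The reads behind a value ran from 237 for PSMB9 in control 2 to 18626 for CD74 in resveratrol 1.

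**Figure D1:**
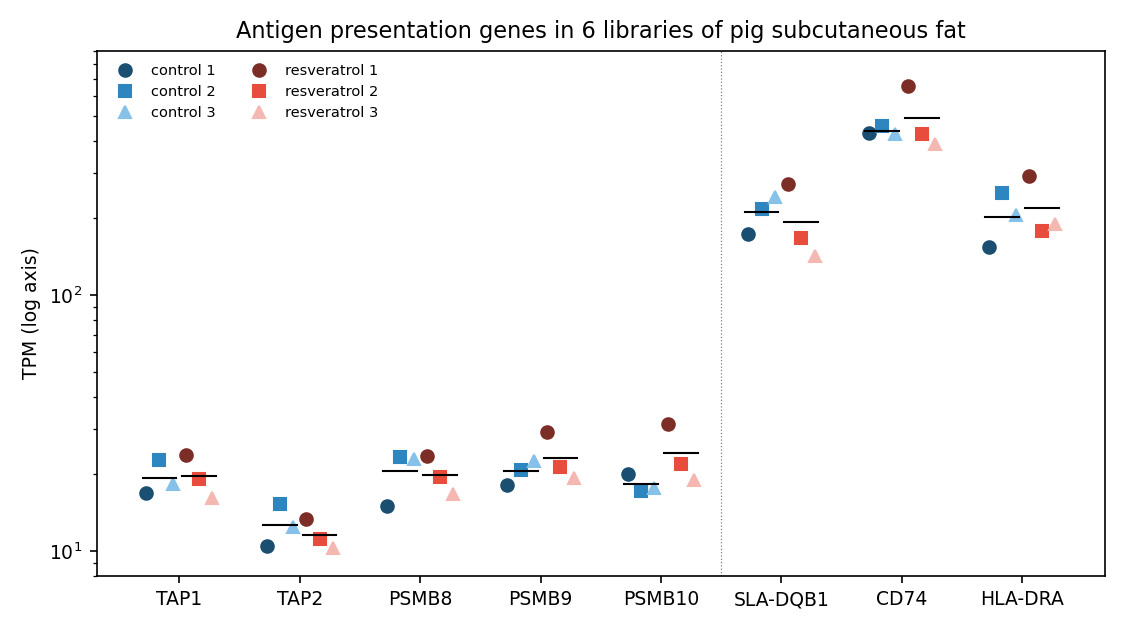
TPM (log axis) of the 7 members and of the HLA-DRA row in each of the 6 libraries; points are libraries, black bars are group means, and the dotted line parts class I loading genes from class II genes. The groups overlap for every gene shown, and resveratrol 1 is the highest library for each gene except TAP2.

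No member passed the adjusted threshold between the diets. By edgeR's quasi-likelihood test (Benjamini-Hochberg, all tested rows), 0 of 5 class I loading genes and 0 of 2 class II genes were called, and 0% of all tested rows were. At an unadjusted p under 0.05 there was again 0 of 7 members, against 6.53% of tested rows. DESeq2 called 0 of the 7 and 0.268% of tested rows. The TPM of the groups overlapped for all 7, where 12.3% of tested rows had groups that did not overlap. The log2 fold change, resveratrol against control, was above 0 for 4 of the 5 class I genes with a median of 0.13. It was above 0 for 1 of the 2 class II genes with a median of 0.08. Over all tested rows the median was -0.0075 and 48.8% were above 0. With limma on log2(TPM + 0.5), 3 of the 5 class I genes were above 0, and the medians were 0.03 for class I and -0.02 for class II.

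TAP1 (ENSSSCG00000025618.2) and TAP2 (ENSSSCG00000025593.2) encode the paired chains of the peptide transporter. TAP1 stood at 16.8, 22.6 and 18.2 TPM for control 1, 2 and 3, against 23.7, 19.0 and 16.1 for resveratrol 1, 2 and 3. The lowest and the highest library were thus both on the resveratrol diet. The control mean was 19.2 ± 3.02 TPM and the resveratrol mean 19.6 ± 3.83 TPM (SD, n = 3 each), and edgeR gave a log2 fold change of 0.13 (95% interval -0.24 to 0.50, adjusted p = 0.863). TAP2 stood at 10.4, 15.2 and 12.4 TPM for control 1, 2 and 3, against 13.3, 11.1 and 10.3 for resveratrol 1, 2 and 3. Control 2 was its highest library, and its log2 fold change of -0.03 had a 95% interval of -0.38 to 0.33 (edgeR, adjusted p = 0.977). The TPM ratio of TAP1 to TAP2 kept within 1.47 to 1.78 over the 6 libraries, the narrowest of the 4 ratios taken between class I loading genes.

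PSMB8, PSMB9 and PSMB10 encode the catalytic subunits of the immunoproteasome, which replace PSMB5, PSMB6 and PSMB7 of the constitutive proteasome. PSMB8 (ENSSSCG00000026951.2) stood at 15.0, 23.4 and 22.9 TPM for control 1, 2 and 3, against 23.5, 19.4 and 16.7 for resveratrol 1, 2 and 3. Control 1 was low, and the rest of the controls stood level with resveratrol 1. Its log2 fold change was 0.04 (95% interval -0.40 to 0.47). PSMB9 (ENSSSCG00000001463.3) stood at 18.1, 20.7 and 22.4 TPM for control 1, 2 and 3, against 29.0, 21.2 and 19.2 for resveratrol 1, 2 and 3. Only resveratrol 1 stood clear of the controls, and the log2 fold change was 0.24 (95% interval -0.19 to 0.68).

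PSMB10 (ENSSSCG00000031781.1) had the largest fold change of the 7. It stood at 19.9, 17.2 and 17.6 TPM for control 1, 2 and 3, against 31.4, 21.8 and 18.9 for resveratrol 1, 2 and 3. Resveratrol 1 and 2 were above every control library, and resveratrol 3 was below control 1. The control mean was 18.2 ± 1.5 TPM and the resveratrol mean 24.1 ± 6.54 TPM (SD, n = 3 each). The log2 fold change was 0.46 (SE 0.21, 95% interval -0.01 to 0.93), with an edgeR adjusted p of 0.733. Without resveratrol 1 it was 0.25.

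Against its constitutive counterpart PSMB7, PSMB10 ran at a TPM ratio of 0.290, 0.185 and 0.179 in control 1, 2 and 3 and of 0.404, 0.225 and 0.195 in resveratrol 1, 2 and 3. PSMB7 thus exceeded PSMB10 in every library. The groups overlapped, and the log2 ratio differed by 0.29 (exact two-sided permutation test, p = 0.5, where 3 against 3 allows no p under 0.1). Without resveratrol 1 the difference was -0.02. PSMB5 and PSMB6 were matched to no row, so this was the only such ratio tested. Within the immunoproteasome, PSMB10 stood below PSMB8 in control 2 and 3, at ratios of 0.734 and 0.768. It stood above PSMB8 in the other 4 libraries, at ratios of 1.12 to 1.34.

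SLA-DQB1 (ENSSSCG00000001457.4), the beta chain of the DQ class II molecule, measured 173, 216 and 241 TPM in control 1, 2 and 3. In resveratrol 1, 2 and 3 it measured 272, 167 and 142 TPM. The resveratrol group held both the highest and the lowest libraries, and the SD of 68.8 TPM was larger than the difference of the means (control 210.0 TPM, resveratrol 193 TPM). The log2 fold change was -0.05 (95% interval -0.59 to 0.49, edgeR adjusted p = 0.971). DQ genes have close paralogs and many alleles, so how reads were divided among them is uncertain.

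CD74 (ENSSSCG00000033262.1), the invariant chain, stood at 428, 457 and 427 TPM for control 1, 2 and 3, against 654, 427 and 389 for resveratrol 1, 2 and 3. The controls lay close together (437 ± 17.1 TPM, SD, n = 3), resveratrol 2 was level with them, resveratrol 3 was below and resveratrol 1 was well above. The resveratrol mean was 490 ± 143 TPM (SD, n = 3), and the log2 fold change was 0.21 (95% interval -0.26 to 0.69, edgeR adjusted p = 0.812). The HLA-DRA row (ENSSSCG00000001453.4) stood at 153, 249 and 205 TPM for control 1, 2 and 3, against 291, 178 and 189 for resveratrol 1, 2 and 3, with a log2 fold change of 0.21 (95% interval -0.28 to 0.69). The ratio of CD74 to SLA-DQB1 in TPM was 2.47, 2.12 and 1.77 in control 1, 2 and 3 and 2.41, 2.55 and 2.74 in resveratrol 1, 2 and 3. The groups overlapped in this ratio too.

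**Figure D2:**
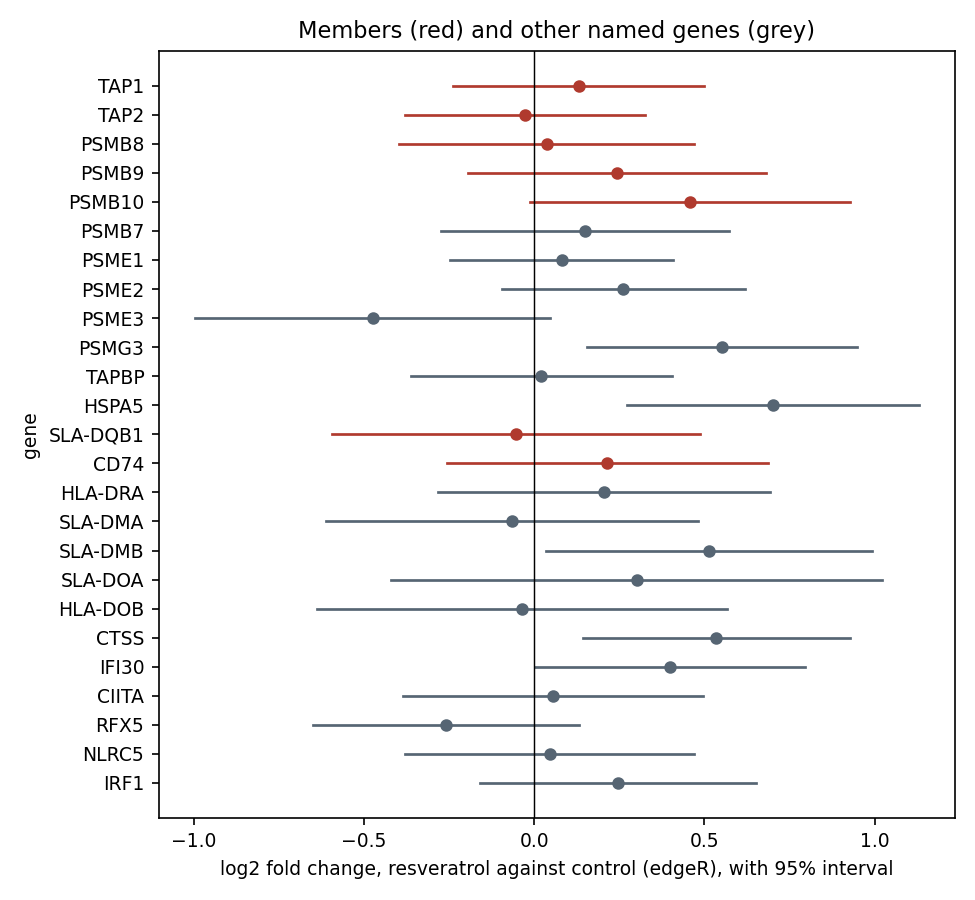
The log2 fold change of resveratrol against control from edgeR (x axis) for the members in red and other named genes of the pathway in grey, with 95% intervals not adjusted for the number of genes. All 7 members have intervals that include 0, while those of PSMG3, HSPA5, SLA-DMB, CTSS and IFI30 do not. PSMG3, HSPA5 and CTSS are shown for the smallest p of their list, and IFI30 was named after its value was seen. The intervals of these genes thus come with that choice and are no contrast to the members. None of the genes shown was called by edgeR, and 6.53% of tested rows had an unadjusted p under 0.05.

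A single library stood highest for most of the 7 genes. Resveratrol 1 had the highest TPM in 6 of the 7 genes, all but TAP2, while it was the highest library in 10.75% of all tested rows. On the TMM-scaled counts it was the highest in 6 of the 7 as well, all but PSMB8, against 11.2% of tested rows. Its log2 CPM (the TMM-scaled count) stood above the mean of the 6 libraries by between 0.16 (TAP2) and 0.60 (PSMB10). Resveratrol 2 deviated by between -0.25 (SLA-DQB1) and 0.07 (PSMB10), and resveratrol 3 by between -0.34 (SLA-DQB1) and 0.0024 (PSMB10). This pattern was noticed in these data and carries no test.

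**Figure D3:**
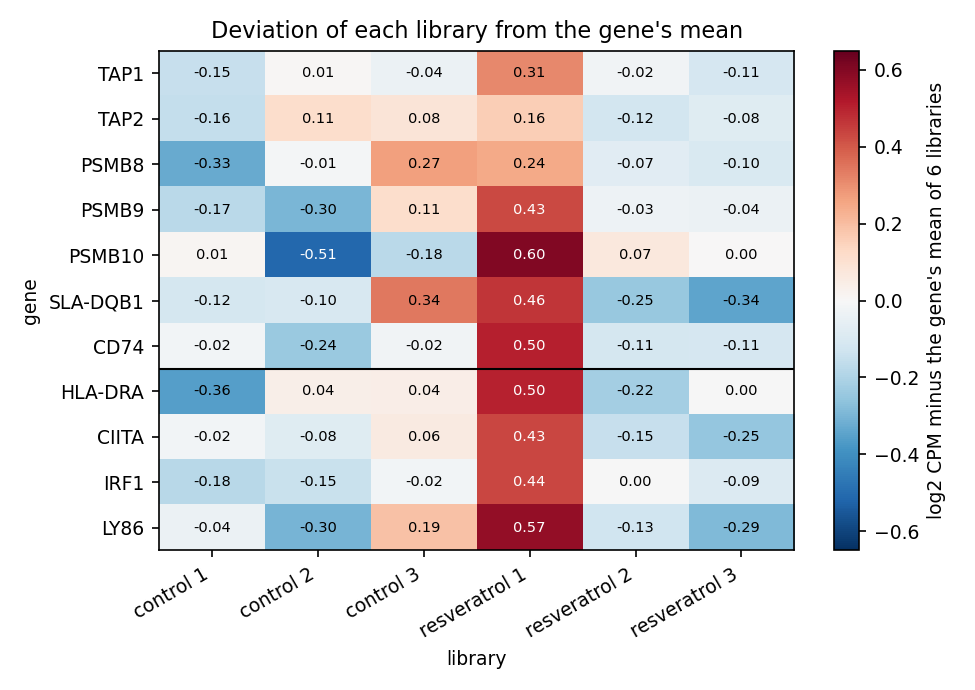
Log2 CPM of each library (columns) minus the gene's mean over the 6 libraries, with colour and the printed number giving the same value; rows above the line are the members. Below the line, CIITA, IRF1 and LY86 are among the genes most like a class, so their pattern comes with that choice. Resveratrol 1 is above the mean in every row, by 0.16 to 0.60 for the members, and resveratrol 2 and 3 are near or below it in most rows.

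Leaving out resveratrol 1 lowered the fold change of all 7 genes. The log2 fold changes were then 2.07e-05 for TAP1, -0.11 for TAP2, -0.08 for PSMB8 and 0.08 for PSMB9. They were -0.35 for SLA-DQB1 and -0.01 for CD74. The class II median moved from 0.08 to -0.18 and the class I median from 0.13 to 2.07e-05, which is also the TAP1 value. No member passed the adjusted threshold without any 1 of the 6 libraries. PSMB10 had an unadjusted p under 0.05 without control 1 (edgeR, log2 fold change 0.58, adjusted p = 0.699) and without resveratrol 3 (edgeR, 0.57, adjusted p = 0.9999).

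**Figure D4:**
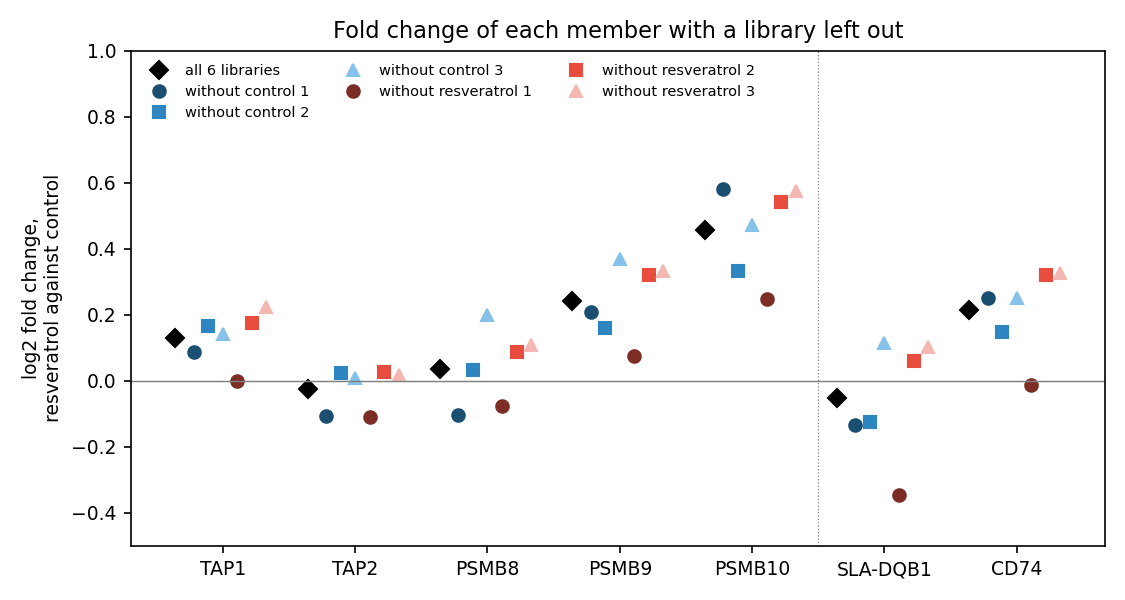
The log2 fold change of each member (y axis) with all 6 libraries (black diamonds) and with each library left out in turn (coloured points). The point without resveratrol 1 is the lowest of the 6 for every member except PSMB8, where the one without control 1 is lower, and it ranges from -0.35 for SLA-DQB1 to 0.25 for PSMB10.

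Across the 6 libraries all 21 pairs of members correlated positively in log2 CPM, with Pearson's r from 0.05 (TAP2 and PSMB10) to 0.91 (PSMB9 and CD74) and a median of 0.74. Over the 5 libraries without resveratrol 1, 12 of the 21 pairs were positive, and the median was 0.39. TAP2 and PSMB10 then had an r of -0.88 and TAP1 and CD74 one of -0.64. These are descriptions over few libraries of unequal depth. On RefSeq's pig assembly Sscrofa11.1, TAP2, PSMB8, TAP1 and PSMB9 lie next to each other in this order beside SLA-DOB, while PSMB10 lies between CTRL and LCAT and CD74 between TCOF1 and RPS14.

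The genes most like each class were taken as the 6 with the highest Pearson's r to the mean of its standardized members, among 7673 genes with a mean of at least 5 TPM. For class II the first was LY86, a secreted partner of a Toll-like receptor homologue in myeloid and B cells (r = 0.985). The second was CIITA, the coactivator that class II transcription requires (r = 0.972). CIITA stood at 4.57, 6.07 and 5.12 TPM for control 1, 2 and 3, against 6.84, 4.43 and 3.69 for resveratrol 1, 2 and 3, so that the resveratrol group held the highest and the lowest libraries. MAP4K4, RHOBTB1, TPGS2 and ITIH5 followed, with r from 0.935 to 0.960. For class I loading the list held LRRC8B, FRMD3, CXCL2, IRF1, TADA2A and MAP4K4, with r from 0.949 to 0.968.

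IRF1, the interferon-induced transcription factor that binds class I gene promoters, had an r of 0.960 with class I loading. It stood at 13.3, 16.7 and 15.0 TPM for control 1, 2 and 3, against 21.2, 15.8 and 13.4 for resveratrol 1, 2 and 3. The log2 fold change of IRF1 was 0.25 with all libraries and 0.07 without resveratrol 1, its highest. Without resveratrol 1 the r of CIITA with class II was 0.871 and that of IRF1 with class I loading was 0.786, over 5 libraries. Without resveratrol 1 and control 3, the libraries farthest from the median of each class, these were 0.833 and 0.765, while MAP4K4 dropped to 0.206 for class II and 0.146 for class I. CIITA, IRF1 and the members share their libraries, and no p is given. Both genes are also among the fixed pathway genes. They are set beside the classes here for their likeness, so a peak in resveratrol 1 comes with that choice and is no separate observation.

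Of the regulators of these genes, 0 of 18 tested passed the adjusted or the unadjusted threshold in edgeR, against 0% and 6.53% of tested rows. The list had 11 genes above 0 and 7 below, with a median log2 fold change of 0.05. With limma on log2(TPM + 0.5), 7 of the 18 were above 0. Without resveratrol 1, 8 were above 0 and the median was -0.05. CIITA and NLRC5, the class I counterpart of CIITA, had log2 fold changes of 0.06 and 0.05 in edgeR, and of -0.10 and -0.06 with limma on log2(TPM + 0.5). RFX5, a DNA-binding subunit of the complex on class II promoters, had -0.26 (95% interval -0.65 to 0.13), and its partner RFXANK had 0.22. Of the 16 interferon-induced genes measured, 0 had an unadjusted p under 0.05 in edgeR, against 6.53% of tested rows. Their median log2 fold change was 0.09, with 11 of the 16 above 0. Without control 1 the median was -0.10 with 7 above 0, and without control 2 it was 0.24 with 13 above 0. Their summed TPM ranged from 681 to 1591 (control 2, the shallowest library) over the control libraries and from 740 to 1188 over the resveratrol libraries. Most of it came from IFI6, at 393.9, 1096 and 526.5 TPM in control 1, 2 and 3. In resveratrol 1, 2 and 3 IFI6 stood at 765.1, 462.1 and 706.7 TPM.

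On the class I side, 10 of 10 tested genes of the peptide loading complex and peptide trimming had a log2 fold change above 0, with a median of 0.11. Leaving out resveratrol 1 left 7 above 0, leaving out control 3 left 6 with a median of 0.03, and limma on log2(TPM + 0.5) gave 8. Only HSPA5, an endoplasmic reticulum chaperone with a wide role in protein folding, had an unadjusted p under 0.05 in the higher direction, where 2.21% of tested rows did (edgeR, log2 fold change 0.70, adjusted p = 0.733). It stood at 139, 145 and 102 TPM for control 1, 2 and 3, against 210, 181 and 193 for resveratrol 1, 2 and 3, so that the groups did not overlap. TAPBP, the tapasin that bridges the transporter and the heavy chain, had 0.02 (95% interval -0.36 to 0.40), and -0.07 with limma on log2(TPM + 0.5). No row was matched to the polymorphic class I heavy chains, which were not analysed here. The related molecules MR1, FCGRT and HFE were above 0 in the same list, and MR1, which presents vitamin metabolites, had 0.43 (95% interval -0.12 to 0.98).

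In the constitutive proteasome core, 10 of 11 tested subunits were above 0 with a median of 0.15. In edgeR 0 of them had an unadjusted p under 0.05, against 6.53% of tested rows. Without resveratrol 3 the median was 0.05 with 7 above 0, and without control 3 or resveratrol 1 it was 0.28 or 0.27 with 11 above 0. PSMA2 had the smallest p of those above 0, at a log2 fold change of 0.25 (0.11 without resveratrol 3), and PSMB3 was the 1 subunit below 0, at -0.04. PSME1 and PSME2, the interferon-induced cap subunits, had 0.08 and 0.26. PSME2 stood at 39.9, 40.4 and 40.3 TPM for control 1, 2 and 3, against 46.8, 42.8 and 47.8 for resveratrol 1, 2 and 3 without overlap of the groups, though its 95% interval of -0.10 to 0.62 included 0. PSME3, the nuclear cap, had -0.47 (95% interval -0.996 to 0.0474). Control 2 was its highest library at 18.9 TPM, against 9.42 and 9.97 TPM in control 1 and 3, and without control 2 its log2 fold change was -0.22. PSMG3, a chaperone of proteasome assembly, was the only gene of its list of 6 at an unadjusted p under 0.05 in either direction, against 6.53% of tested rows (edgeR, log2 fold change 0.55, adjusted p = 0.733). It stood at 52.1, 53.6 and 60.8 TPM for control 1, 2 and 3, against 78.7, 78.9 and 76.0 for resveratrol 1, 2 and 3, again without overlap.

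On the class II side, 10 of 11 other chains, peptide editors and endosomal enzymes were above 0 with a median of 0.21, and 0 passed the adjusted threshold in edgeR. In 10 of the 11 resveratrol 1 was the highest library in TPM. SLA-DMB, CTSS and IFI30 had an unadjusted p under 0.05 in the higher direction, where 2.21% of tested rows did, and 0 of the 11 did in the lower direction, where 4.32% did. Without resveratrol 1 this count of 3 became 0, and 7 genes were above 0. It was 2 without control 1, 1 without control 2, 2 without control 3, 3 without resveratrol 2 and 1 without resveratrol 3, and 0 with limma on log2(TPM + 0.5).

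SLA-DMB, a chain of the DM editor that exchanges peptides on class II molecules, stood at 36.0, 35.9 and 37.9 TPM for control 1, 2 and 3, against 67.2, 38.5 and 43.8 for resveratrol 1, 2 and 3. The groups did not overlap, but resveratrol 2 stood within 1 TPM of control 3. Its log2 fold change was 0.51 (edgeR, adjusted p = 0.733) and 0.27 without resveratrol 1. Its partner SLA-DMA stood at 9.77, 14.3 and 8.49 TPM for control 1, 2 and 3, against 13.6, 8.20 and 7.49 for resveratrol 1, 2 and 3, with a log2 fold change of -0.06. The DO chains, which restrain DM, were low in both groups. SLA-DOA averaged 2.93 ± 0.610 and 3.43 ± 1.61 TPM, and the row with the human-style symbol HLA-DOB averaged 3.85 ± 1.19 and 3.46 ± 0.256 TPM (SD, n = 3 each). CTSS, the cathepsin that trims the invariant chain, had 0.54 (edgeR, adjusted p = 0.733) and 0.42 without resveratrol 1. IFI30, the endosomal thiol reductase, named after its value was seen, had 0.40 (edgeR, adjusted p = 0.733).

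Macrophage markers also stood high in resveratrol 1. Of 16 such markers, 16 had a log2 fold change above 0 (48.8% of all tested rows did) and 8 had an unadjusted p under 0.05 in the higher direction (2.21% of tested rows), with 0 called by edgeR, and 13 were highest in resveratrol 1. Their summed TPM was 732, 711 and 626 in control 1, 2 and 3 and 1176, 811 and 780 in resveratrol 1, 2 and 3. Without resveratrol 1 the count at an unadjusted p under 0.05 was 3, and 15 were above 0. That count was 5 without control 2, without control 3 and with limma on log2(TPM + 0.5). CD74 ran at 0.584, 0.643 and 0.682 of this sum in control 1, 2 and 3 and at 0.556, 0.526 and 0.498 in resveratrol 1, 2 and 3. Relative to the macrophage sum, CD74 was thus lower in each resveratrol library than in each control library, resveratrol 1 included. The largest parts of that sum were C1QA, C1QB, C1QC and TYROBP, at 139, 118, 157 and 112 TPM in control 1. Of the 16 markers, 5 had groups whose TPM did not overlap, against 12.3% of tested rows, and CSF1R and CD163 were among those that overlapped. The ratio of CD74 to the macrophage sum was chosen after the values were seen and carries no test, and ratios to single markers were not taken. Ratios of CD74 to the sums of other immune cell markers overlapped between the groups. They were 26.5 to 29.5 in control and 24.3 to 28.7 in resveratrol libraries for dendritic cells. For T and NK cells they were 3.79 to 4.53 and 3.45 to 4.49, and for B and plasma cells 32.3 to 47.0 and 34.5 to 55.7. Against the tendon and cartilage sum CD74 was higher in each resveratrol library (41.4 to 82.4, control 2.68 to 40.6). The part of macrophage content in the class II levels was not tested.

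T and NK cell markers also stood high in resveratrol 1, with 12 of 14 symbols matched to 13 rows and 10 of 11 tested rows highest there. Counts and sums are by row, so a symbol with more than 1 row can count more than once. Without it 3 of the 11 were above 0, against 9 with all libraries. Their summed TPM ranged from 97.8 to 113 over the control libraries and from 113 to 146 over the resveratrol libraries, most of it from CD247. CD247 alone stood at 72.4, 75.2 and 88.8 TPM in control 1, 2 and 3 and at 101, 95.4 and 93.9 in resveratrol 1, 2 and 3. The sums thus mostly follow that gene and say little about the other rows. B cell markers were low. PAX5 had at most 3 reads in a library, and CD79B was listed at 0 in control 2. CD22 had more, at 115 to 302 reads, and JCHAIN had 70 to 148 reads and 5.33 to 9.74 TPM. The 9 B and plasma cell markers summed to 9.11 to 14.2 TPM over the control libraries and 11.3 to 11.7 over the resveratrol libraries, most of it from JCHAIN. The 3 tested had log2 fold changes of 0.18 to 0.24, and edgeR called 0. Dendritic cell markers varied, with 6 to 17 reads of XCR1 and 9 to 40 of FLT3 in a library. ZBTB46 had 99 to 306 reads and CADM1 165 to 516. The 6 tested had log2 fold changes from -0.55 (CCR7) to 0.87 (BATF3, 14 to 89 reads). Of these, 4 were above 0, where 48.8% of all tested rows were, and edgeR called 0. The list summed to 14.6 to 16.1 TPM over the control libraries and 16.0 to 22.8 over the resveratrol libraries. Their part in the levels of the members was not tested either.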

How the data were processed

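Each of the 6 deposited library tables gives, per the file headers, the authors' read count of every row (whole numbers, not normalized) beside its TPM. The submitters' processing notes list Bowtie 0.12.2 and builds of the mouse genome (mm8, mm9), although rows carry pig Ensembl identifiers. The pig build, annotation, counting program and strand setting were not given in the sources used here, so no coordinates are printed and reads of overlapping genes or close paralogs may be divided in ways that cannot be checked. Groups and replicate numbers come from the sample titles. Symbols were matched by Ensembl identifier without version, and 14750 of 22844 rows had one.

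Counts of rows that averaged 0.5 TPM or more across the libraries (14908 rows, with all 7 members among them) were scaled by TMM and fitted with edgeR 4.0.16 (robust quasi-likelihood, R 4.3.3). The adjusted p (Benjamini-Hochberg) is over all these rows, with a threshold of 0.05. The 95% intervals use the F statistic's standard error and total degrees of freedom and cover 1 gene at a time. The common biological coefficient of variation was 0.235. TPM levels are deposited values, mean ± SD. The edgeR steps were also run on simulated counts with the same dispersion for every row and no library set apart. That run does not test how the fit handles a library such as resveratrol 1. Alternatives used DESeq2 1.42.0, limma 3.58.1 on log2(TPM + 0.5) and log2(TPM + 1), other scalings and filters, a replicate block, and each library left out. List counts under these alternatives were added after seeing the data.

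The members and lists were chosen with earlier results of these data known. The text names every member, fixed pathway genes (PSMB7, PSME1, PSME2, TAPBP, CIITA, NLRC5, RFX5, IRF1, SLA-DMA, SLA-DMB, SLA-DOA), and in each pathway list the gene with the smallest p per direction. HLA-DRA, HLA-DOB and IFI30 fall outside this rule, and 1 gene it names is not reported here. The rule asked for 3 immunoproteasome ratios, of which 1 could be formed.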

Additional observations from a re-analysis of the deposited data

How the results depend on the processing

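No member passed the adjusted threshold under any of the 16 alternatives, and the class I and class II medians moved by less than the spread between libraries (0.183 and 0.305 on the log2 scale) under each, though the class II median went below 0 with limma on TPM, on quantile-normalized TPM and without resveratrol 1. Over all tested rows, where edgeR called 0, DESeq2 called 40 and limma on quantile-normalized values called 1, while leaving out 1 library gave 0 to 4, the 4 without control 2. Fold changes near 0 changed sign, none of them called. Values from limma (pseudocount 0.5, then 1) were -0.0250 and -0.0247 for PSMB8, -0.0655 and -0.0628 for TAPBP, -0.101 and -0.0905 for CIITA, and -0.0636 and -0.0590 for NLRC5. With library totals alone they were 0.0372 for TAP2, 0.0374 for SLA-DQB1, 0.0106 for HLA-DOB and 0.0276 for PSMB3, and with quantile normalization 0.0619 for HLA-DOB. The cause was not tested.

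With 1 library left out, log2 fold changes ran from -0.111 to 0.0267 for TAP2, -0.105 to 0.199 for PSMB8, -0.346 to 0.116 for SLA-DQB1, -0.0135 to 0.327 for CD74, -0.0173 to 0.352 for HLA-DRA and -0.189 to 0.107 for HLA-DOB. They ran from -0.0546 to 0.148 for TAPBP, -0.181 to 0.191 for CIITA, -0.102 to 0.195 for NLRC5, -0.346 to 0.0682 for SLA-DMA, -0.109 to 0.525 for SLA-DOA and -0.177 to 0.106 for PSMB3. The log2 ratio of PSMB10 to PSMB7 ran from -0.0210 to 0.518.

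The labels do not say whether same-numbered libraries of the 2 groups share more than a number. Their deviations from the group means correlated at 0.157, 0.0741 and 0.200, each library best with its own number. Libraries with different numbers correlated at -0.154 to 0.0121, and the reason was not tested. With the replicate block, edgeR called 0 rows and 0 members, PSMB10 had a log2 fold change of 0.449 (adjusted p = 0.554) and an unadjusted p under 0.05, which it also had with library totals alone and with no filter. The exact paired sign-flip test of its ratio to PSMB7 gave p = 0.25, the smallest that 3 pairs allow.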

Other observations

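Genes of costimulation and antigen uptake, which were not described above, had 7 of 9 tested genes with a log2 fold change above 0 and a median of 0.21. In edgeR 0 were called and 0 had an unadjusted p under 0.05, against 0% and 6.53% of tested rows. Without resveratrol 1 the median was 0.09, and without resveratrol 2 it was 0.37 with 2 genes at an unadjusted p under 0.05 in the higher direction. CD209, a lectin receptor of macrophages and dendritic cells, stood at 43.0, 57.0 and 30.8 TPM for control 1, 2 and 3, against 64.1, 50.1 and 47.8 for resveratrol 1, 2 and 3. Its log2 fold change was 0.41 (95% interval -0.02 to 0.83), and 0.25 without control 3. ICAM1, an adhesion molecule that T cells bind, stood at 6.71, 9.82 and 5.61 TPM for control 1, 2 and 3, against 5.76, 6.07 and 3.91 for resveratrol 1, 2 and 3, and its log2 fold change was -0.38 (95% interval -0.84 to 0.07), and -0.24 without control 2 or without resveratrol 3. The groups overlapped for both genes.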
